A study of Drosophila melanogaster with 9 samples.

Results

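The chitinase family was followed in whole larvae of *Drosophila melanogaster* at the third instar that had been pinched with forceps, pricked with a clean needle or left untreated. The family was taken as the 10 genes *Cht2* and *Cht4* to *Cht12*, and its members were found by the gene symbol in the annotation of the array. All 10 genes were present, read by 12 of the 18769 probe sets tested, where a probe set is a group of short oligonucleotides that reads 1 transcript or several. *Cht6* had 3 probe sets and each of the other genes had 1.

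Every larva was of the *y w* strain, and RNA of the whole body was hybridized to 9 Affymetrix Drosophila Genome arrays, 3 per group. The groups were larvae taken 4 h after pinching, larvae pricked with a clean tungsten needle (clean injury) and taken after 4 h, and larvae without treatment, which the study places at 0 h. Pinched larvae were handled in water and pricked larvae on a cold agar plate, and both were then kept on apple juice agar. No untreated larvae kept for 4 h were analysed here, so that treatment cannot be told apart from time, handling and food in either comparison with untreated larvae. The labels call the arrays of a group biological replicates, and p-values set a difference between groups against the spread between these arrays.

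Chitin, a polymer of N-acetylglucosamine, stiffens the insect cuticle, lines the tracheae and forms part of the peritrophic matrix around the food in the midgut. Chitinases are secreted or membrane-bound enzymes of the glycoside hydrolases that cut the polymer, and at each moult they help to digest the old cuticle. Insect chitinases fall into groups with different sites of action, some acting in the cuticle and others in the gut. In the beetle *Tribolium*, the relatives of *Cht5* and *Cht10* are needed for moulting, while the group that holds *Cht4*, *Cht8* and *Cht9* is expressed largely in the gut.

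The deposited values are log2 signals, in which a difference of 1 is a 2-fold change, and the medians of the 9 arrays lay between 4.94 and 5.08. The 3 markers of larval fat body were bright, and a list of 5 adult genes was dim, with a mean level between 3.49 and 3.84 over the arrays. Single genes went the other way. The yolk gene *Yp3* of the adult list averaged 5.42 in pinched, 5.73 in pricked and 5.42 in untreated larvae, above the array medians. The larval cuticle marker *Cpr47Ee* averaged 3.53, 3.48 and 3.48 in the same order, below them. *Lsp2*, a storage protein of the larval fat body, averaged 13.9 on the log2 scale in all 3 groups, while the male seminal fluid gene *Acp26Aa* averaged 2.18 in pinched, 2.21 in pricked and 2.27 in untreated larvae. Groups were compared with limma, a linear model in which the error of each probe set borrows from that of all others, over all 18769 probe sets. A change was called at an adjusted p under 0.05 (Benjamini-Hochberg), and ± gives the SD over 3 arrays.

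After pinching, 2 of the 12 chitinase probe sets were called higher and 1 was called lower than in untreated larvae. The probe sets were those of *Cht4* (higher), *Cht5* (higher) and *Cht6* (lower, 1 of its 3 probe sets). Over all probe sets tested, 4.21% were called higher and 4.99% lower in this comparison. After clean injury, again 2 of the 12 were called higher and 1 lower, those of the same 3 genes, against 5.22% higher and 4.93% lower over all probe sets. The 2 comparisons share the untreated arrays, so that a common set of 3 genes is not independent support for either. In this fit, which has a mean per group and no pairing of arrays, the remaining 7 genes had no probe set called in either comparison. In RNA of whole larvae, fewer cells of a type and less RNA per cell cannot be told apart. The median log2 change of the 12 probe sets was 0.19 after pinching, beside -0.02 for all probe sets, and 0.24 after clean injury, beside -0.04.

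**Figure D1:**
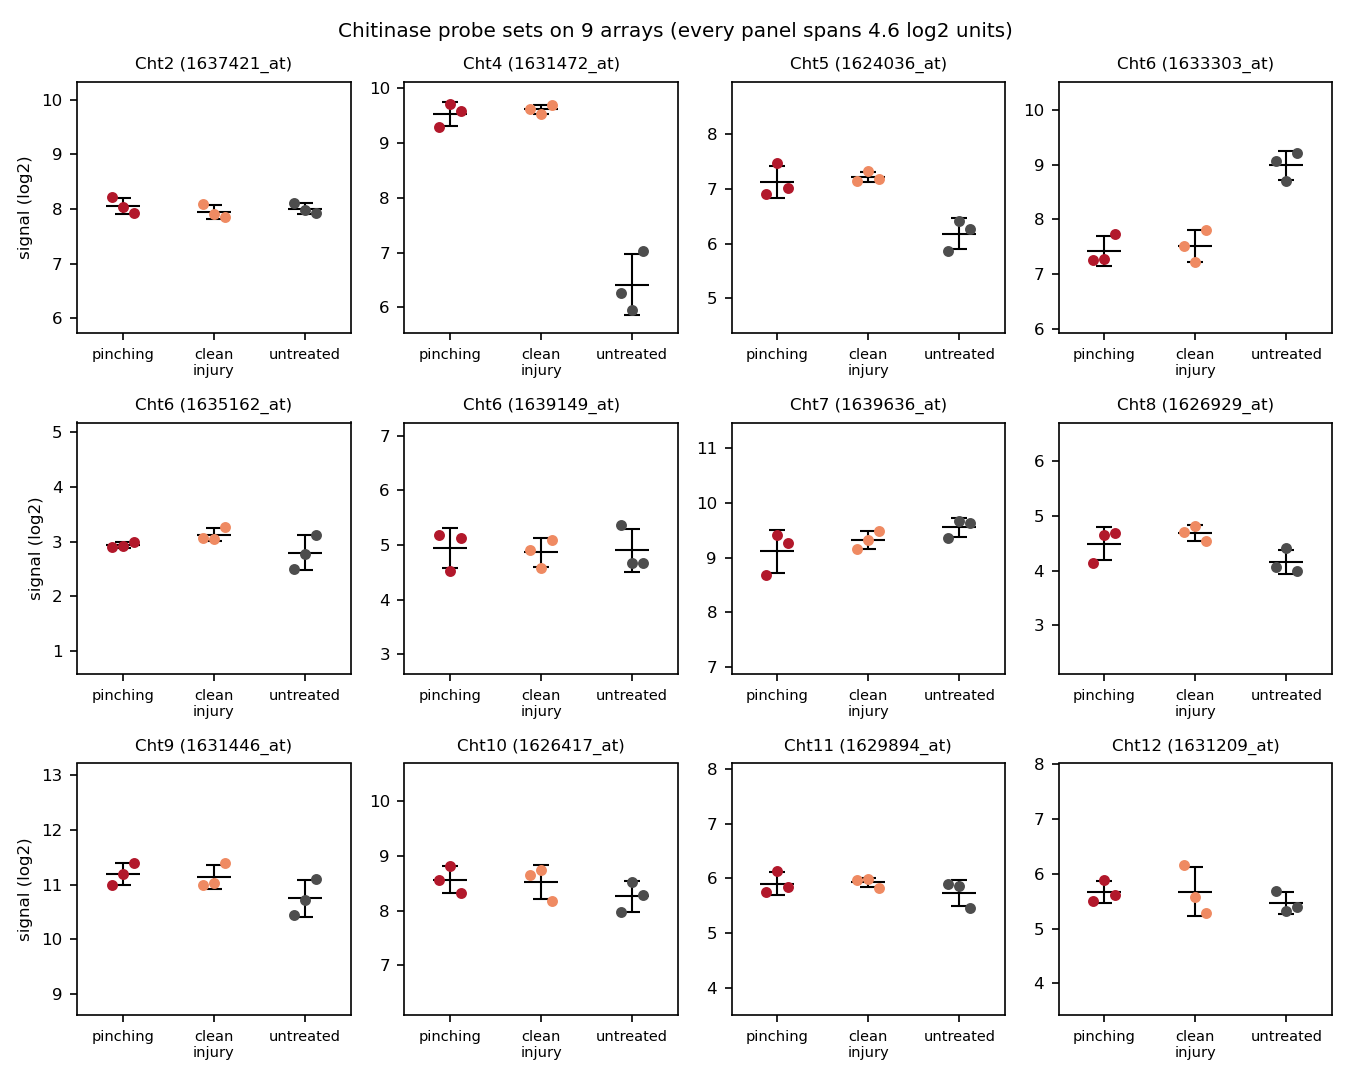
Signal of the 12 chitinase probe sets (log2, y axis) on the arrays of pinched, pricked (clean injury) and untreated larvae, with each point an array and bars giving the mean and SD of 3 arrays. The axes of all panels span the same number of log2 units but start at different levels. *Cht4* and *Cht5* were above the untreated arrays on all 6 arrays of treated larvae, and the *Cht6* probe set 1633303_at was below them.

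*Cht4* showed the largest change of the family in both comparisons with untreated larvae. Its signal (probe set 1631472_at) was 9.30, 9.72 and 9.59 on the arrays of pinched larvae, 9.62, 9.54 and 9.69 after clean injury, and 6.26, 5.94 and 7.03 in untreated larvae. The untreated arrays did not overlap with those of either treatment, and the lowest treated array was above the highest untreated one by more than the whole range of the untreated group. The means were 9.53 ± 0.21 after pinching, 9.62 ± 0.08 after clean injury and 6.41 ± 0.56 in untreated larvae, and the untreated group had the widest spread. *Cht4* was 8.71-fold higher after pinching (log2 change 3.12, SE 0.24, limma adjusted p = 5.27e-05), with a 95% confidence interval of 6.06-fold to 12.5-fold. After clean injury it was 9.24-fold higher (log2 change 3.21, SE 0.24, limma adjusted p = 3.93e-05). When each array was left out in turn, the log2 change lay between 2.89 and 3.43 after pinching and between 2.97 and 3.52 after clean injury, and it was called in all 9 of these fits.

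*Cht5*, whose *Tribolium* relative takes part in the digestion of the old cuticle, rose less. The signal of *Cht5* (1624036_at) was 6.91, 7.47 and 7.02 in pinched larvae, 7.14, 7.33 and 7.19 in pricked larvae, and 5.87, 6.41 and 6.27 in untreated larvae. All 6 arrays of treated larvae were above the 3 untreated arrays. The means were 7.13 ± 0.30 after pinching, 7.22 ± 0.10 after clean injury and 6.18 ± 0.28 in untreated larvae. *Cht5* was 1.93-fold higher after pinching (log2 change 0.95, SE 0.18, limma adjusted p = 0.00824) and 2.05-fold higher after clean injury (log2 change 1.04, SE 0.18, limma adjusted p = 0.00525).

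*Cht6* changed in the other direction, on 1 of its probe sets. The signal of 1633303_at was 7.26, 7.26 and 7.73 in pinched larvae, 7.51, 7.22 and 7.80 in pricked larvae, and 9.06, 8.69 and 9.22 in untreated larvae. Every array of treated larvae was below every untreated array. The means were 7.42 ± 0.27 after pinching, 7.51 ± 0.29 after clean injury and 8.99 ± 0.27 in untreated larvae. This probe set fell by 1.57 on the log2 scale after pinching, a 2.97-fold lower level (SE 0.19, limma adjusted p = 0.00107), and by 1.48 after clean injury, a 2.79-fold lower level (SE 0.19, limma adjusted p = 0.00138).

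The other 2 probe sets of *Cht6* did not show the fall. Probe set 1639149_at gave 5.18, 4.52 and 5.14 in pinched larvae, 4.91, 4.59 and 5.10 in pricked larvae, and 5.36, 4.67 and 4.68 in untreated larvae, so that the groups overlapped. It was below the array median on 5 of the 9 arrays, and its 95% confidence interval for pinching, -0.47 to 0.56 on the log2 scale, did not include the fall of 1633303_at. Without detection calls, part of a signal at this level may be background. The interval therefore does not show that another *Cht6* transcript stayed level. Probe set 1635162_at gave 2.90, 2.92 and 2.99 in pinched larvae, 3.06, 3.05 and 3.27 in pricked larvae, and 2.50, 2.78 and 3.13 in untreated larvae. These values were below the array median on all 9 arrays, and without detection calls such dim signals cannot be told apart from background. The RefSeq gene table (assembly Release 6 plus ISO1 MT) lists for *Cht6* the older gene model names CG2989, CG15313, CG15314 and CG43374, and the sources used here do not say for which of these models each probe set was designed. The fall is therefore a measurement of 1633303_at and not of every *Cht6* transcript.

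The 7 other genes had no called probe set in either comparison with limma, with log2 changes from -0.43 to 0.44 after pinching and from -0.23 to 0.53 after clean injury. Adjusted p-values of the uncalled probe sets ranged over 0.188 to 0.934 after pinching and 0.0793 to 0.938 after clean injury in limma. At an unadjusted p under 0.05 in limma, 5 of the 12 probe sets passed after pinching and 4 after clean injury. With the replicate number of the labels as a block in the fit, so that arrays of the same number are set against each other, 3 probe sets were called higher and 2 lower after pinching, and 4 higher and 1 lower after clean injury. The replicate block thus added calls of *Cht9*, *Cht8* and *Cht7*. The share over all probe sets was computed only for adjusted p-values of the fit without the block. The counts at an unadjusted p and with the block therefore cannot be set beside such a share.

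*Cht9*, of the group that is gut-expressed in *Tribolium*, was bright on all arrays. Its probe set (1631446_at) gave 10.98, 11.19 and 11.39 in pinched larvae, 10.99, 11.03 and 11.39 in pricked larvae, and 10.43, 10.71 and 11.11 in untreated larvae. The groups overlapped, since untreated replicate 3 was above the lowest array of each treatment. Within each replicate number, both treated arrays were above the untreated array. The log2 change was 0.44 after pinching (limma adjusted p = 0.188) and 0.39 after clean injury (limma adjusted p = 0.225), and with the replicate block the limma adjusted p was 0.0190 and 0.0289 in these 2 comparisons.

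*Cht8* and *Cht12*, further genes of the same stretch of chromosome as *Cht9*, were not called with all 9 arrays and no block. *Cht8* (1626929_at) gave 4.14, 4.65 and 4.69 in pinched larvae, 4.71, 4.83 and 4.54 in pricked larvae, and 4.07, 4.42 and 4.00 in untreated larvae. The arrays of pricked larvae did not overlap with the untreated ones, those of pinched larvae did, and all 9 values were below the median of their array. After clean injury the log2 change was 0.53 (SE 0.17, limma adjusted p = 0.0793), and with the replicate block *Cht8* was called higher (limma adjusted p = 0.0256). It was also called with only the 6 arrays of the comparison (0.0498), without untreated replicate 2 (0.0452) and without pinching replicate 1 (0.0303), all limma adjusted p-values. After pinching it was 0.33 (SE 0.17, limma adjusted p = 0.272). *Cht12* (1631209_at) gave 5.50, 5.88 and 5.62 in pinched larvae, 6.15, 5.58 and 5.28 in pricked larvae, and 5.69, 5.32 and 5.38 in untreated larvae, and the groups overlapped.

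Among the 7 genes without a call, *Cht7* was the only one whose log2 change was negative in both comparisons. Its probe set (1639636_at) gave 8.68, 9.41 and 9.27 in pinched larvae, 9.15, 9.33 and 9.48 in pricked larvae, and 9.36, 9.67 and 9.63 in untreated larvae. The groups overlapped, with pinched replicate 1 the lowest of the 9 arrays. The log2 change was -0.43 after pinching (limma adjusted p = 0.193, and 0.0376 with the replicate block, which made it a call) and -0.23 after clean injury (limma adjusted p = 0.460, and 0.221 with the block).

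*Cht10*, *Cht11* and *Cht2* overlapped between the groups in both comparisons. *Cht10* (1626417_at), a relative of a *Tribolium* gene needed for moulting, gave 8.57, 8.81 and 8.33 in pinched larvae, 8.65, 8.75 and 8.17 in pricked larvae, and 7.97, 8.53 and 8.28 in untreated larvae. *Cht11* (1629894_at) gave 5.75, 6.14 and 5.84 in pinched larvae, 5.96, 5.99 and 5.83 in pricked larvae, and 5.89, 5.86 and 5.47 in untreated larvae. Their log2 changes were 0.31 and 0.17 after pinching and 0.26 and 0.19 after clean injury. *Cht2* (1637421_at) gave 8.22, 8.04 and 7.92 in pinched larvae, 8.09, 7.91 and 7.84 in pricked larvae, and 8.12, 7.97 and 7.92 in untreated larvae. Its log2 change was 0.05 after pinching, with a 95% confidence interval of -0.21 to 0.32, and -0.06 after clean injury, with an interval of -0.32 to 0.21. These intervals leave room for a change of up to 1.25-fold in *Cht2* in either comparison.

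**Figure D2:**
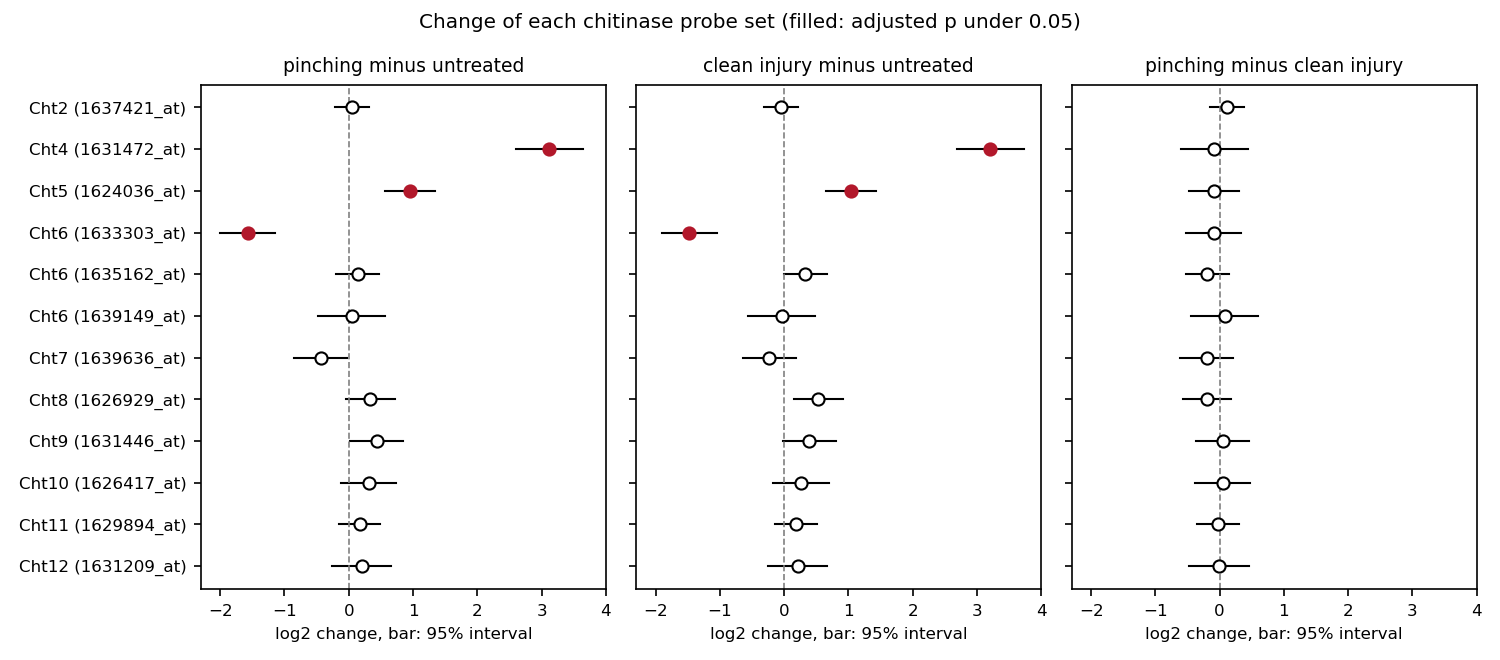
Log2 change (x axis) of each chitinase probe set (rows) in the 3 comparisons, with bars for the 95% confidence interval of the limma fit and filled points for an adjusted p under 0.05. *Cht4*, *Cht5* and the *Cht6* probe set 1633303_at are called against untreated larvae and stand away from 0. The intervals of *Cht7* and *Cht9* after pinching and of *Cht8* after clean injury also exclude 0, without a call. No interval excludes 0 between pinching and clean injury.

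The arrays of the 2 groups did not overlap for 2 probe sets that were higher and 1 that was lower after pinching, out of 12, while 27.6% of all probe sets did not overlap in that comparison. After clean injury, 3 were higher and 1 was lower without overlap, the additional one being *Cht8*, against 34.5% of all probe sets. The share among the chitinases was near that of all probe sets in both comparisons.

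Pinching and clean injury were then compared with each other. No chitinase probe set was called in limma, where 0% of all probe sets were called higher and 0.00533% lower, and no chitinase probe set had an unadjusted p under 0.05 by limma or by the t-test that the methods name. Differences ran from -0.20 to 0.11 on the log2 scale. For *Cht4* the difference was -0.09 with a 95% confidence interval of -0.61 to 0.44. For *Cht5* it was -0.09 (interval -0.48 to 0.30) and for *Cht6* 1633303_at also -0.09 (interval -0.52 to 0.34). Over the 12 probe sets the intervals reached from -0.62 to 0.60, which leaves room for differences of up to about 1.5-fold between the treatments. The dim *Cht6* probe set 1635162_at was the one whose arrays did not overlap, lower in pinched larvae (unadjusted p = 0.240 in limma), and such a lack of overlap held for 5.19% of all probe sets. In the order of the groups, *Cht4* and *Cht5* had the lowest level in untreated larvae, *Cht6* 1633303_at had the highest there, and for these 3 probe sets the 2 treatments did not differ beyond the spread of their arrays.

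*Cht8*, *Cht12*, *Cht4* and *Cht9* lie next to each other on chromosome arm 2R in the RefSeq gene table. Of these 4 neighbours, *Cht4* was called in both comparisons and the other 3 in neither with all 9 arrays and no block, although all 4 had positive log2 changes. With the replicate block *Cht9* was called in both as well, *Cht8* after clean injury and *Cht12* in neither. After pinching the log2 changes were 0.33 for *Cht8*, 0.20 for *Cht12*, 3.12 for *Cht4* and 0.44 for *Cht9*. After clean injury they were 0.53, 0.21, 3.21 and 0.39 in the same order. Of the genes that flank the 4, *mRpL54* beside *Cht8*, which encodes a protein of the mitochondrial ribosome, was lower after pinching (log2 change -0.90, limma adjusted p = 0.0293) and gave -0.72 after clean injury (limma adjusted p = 0.0659). *CG10527* beside *Cht9* gave 0.01 and 0.13 and was called in neither. The other chitinase genes do not lie beside another chitinase gene in this table, with *Cht2* and *Cht7* on arm 3L, *Cht5* on 3R, *Cht10* on 2L, and *Cht6* and *Cht11* on the X chromosome.

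The genes whose pattern over the 9 arrays was most like that of each called chitinase were found by Pearson's r, which is given as a measure of likeness only. The arrays fall into treated and untreated ones, so that r over all 9 mostly follows that gap. The genes were picked on these same arrays, so that a shared order of arrays within a group follows in part from the choice. Such a shared order is no separate support. Most like *Cht4* were *Drs* (r = 0.995), the antifungal peptide drosomycin, *Amyrel* (r = 0.993), an amylase-related gene, and *CG15043* (r = 0.990). *Drs* gave 12.89, 13.24 and 13.06 in pinched larvae, 13.27, 13.34 and 13.09 in pricked larvae, and 5.96, 5.93 and 8.54 in untreated larvae. Untreated replicate 3 was the highest untreated array for both *Cht4* and *Drs*. It was also the highest for *Amyrel*, at 7.42, against 6.76 and 6.81 on the other untreated arrays, and for *CG15043*, at 9.66 against 8.75 and 8.78. With untreated replicate 3 left out, *Cht4* had a log2 change of 3.43 after pinching and of 3.52 after clean injury.

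**Figure D3:**
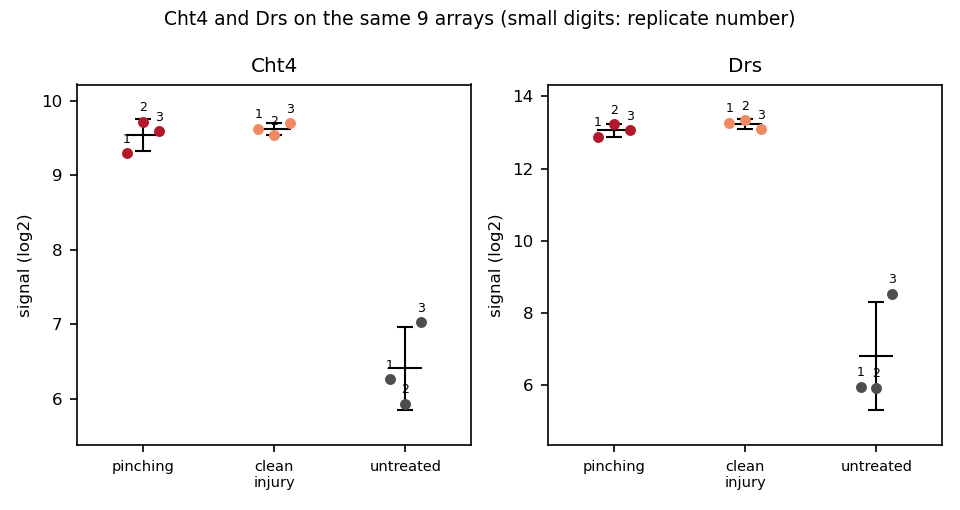
Signal (log2, y axis) of *Cht4* and *Drs* on the arrays of pinched, pricked (clean injury) and untreated larvae, with points numbered by replicate and bars for the mean and SD of 3 arrays. In both panels untreated replicate 3 is the highest untreated array (7.03 for *Cht4* and 8.54 for *Drs*), and it stays below all 6 arrays of treated larvae. *Drs* was picked for its likeness to *Cht4* on these same arrays.

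Most like *Cht5* were *sigmar* (r = 0.991), *del* (r = 0.986), which encodes the piRNA pathway factor Deadlock, and *U2af50* (r = 0.985), the large subunit of a splicing factor. Their log2 changes were smaller than those of *Cht5*. *sigmar* was higher by 0.81 on the log2 scale after pinching and 0.84 after clean injury, *del* by 0.70 and 0.76, and both were called in limma in both comparisons. *U2af50* gave 0.44 and 0.49, with limma adjusted p = 0.0571 after pinching and 0.0359 after clean injury.

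Most like *Cht6* 1633303_at were the larval cuticle gene *Lcp65Aa* (probe set 1629340_s_at, r = 0.996), *Galt* (r = 0.995), an enzyme of galactose metabolism, and *CG11151* (r = 0.994). All 3 were called lower in both comparisons. *Lcp65Aa* 1629340_s_at gave 7.45, 7.43 and 8.21 in pinched larvae, 7.73, 7.38 and 8.21 in pricked larvae, and 10.20, 9.48 and 10.05 in untreated larvae. For both *Cht6* 1633303_at and *Lcp65Aa*, replicate 3 was the highest array of the pinched and of the pricked larvae. Replicate 2 was the lowest array of the pricked and of the untreated larvae for both. In untreated larvae *Cht6* 1633303_at was highest on replicate 3 (9.22) and *Lcp65Aa* on replicate 1 (10.20), and the lowest pinched array differed too. *Lcp65Aa* was picked for its likeness on these arrays, so that a shared order follows in part from the choice.

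Tissue markers were set beside these changes because RNA of the whole larva was used. For these lists and those below, calls with the replicate block have no share over all probe sets beside them, since none was computed. Of 7 marker genes of epidermis and larval cuticle, 2 were lower and 1 was higher after pinching, and 4 were lower and 1 was higher after clean injury. With the replicate block 5 were lower in each comparison. Their median log2 change was -0.73 after pinching and -0.94 after clean injury. The mean level of the list lay between 8.66 and 9.42 on the arrays of pinched larvae, between 8.57 and 9.04 after clean injury and between 9.23 and 10.25 in untreated larvae. The list moved in the direction of *Cht6* 1633303_at, and its part in that result was not tested. Of 19 midgut genes, most of them digestive proteases, 1 was higher and 3 were lower after pinching, and 2 were higher and 3 lower after clean injury, with 2 higher after pinching under the block. Their mean level lay between 11.40 and 11.46 after pinching, 11.35 and 11.46 after clean injury and 11.39 and 11.65 in untreated larvae. Single genes of this list moved both ways, and their part in the change of *Cht4* was not tested. Fat body markers (3 genes) and salivary gland markers (6 genes) had 0 calls in both comparisons in limma without the block (at an unadjusted p under 0.05, 1 salivary gland gene after clean injury), and with the replicate block 1 salivary gland gene was called after pinching, and 1 fat body and 3 salivary gland genes after clean injury.

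Other genes of chitin metabolism were compared in the same fit, with each gene read by its brightest probe set. Chitin fragments left by chitinases are taken apart by hexosaminidases, and neither *Hexo2* nor *fdl*, the 2 measured here, was called after pinching (log2 changes 0.11 and -0.18) or clean injury (0.07 and -0.04), and neither had an unadjusted p under 0.05 in limma. The imaginal disc growth factors are relatives of the chitinases that have lost the activity of the enzyme. Of 6 measured, 2 were higher after both treatments and none was lower. The median log2 change of the 6 was 0.26 after pinching and 0.28 after clean injury, beside -0.02 and -0.04 for all probe sets. *Idgf1* was higher by 0.95 after pinching (limma adjusted p = 0.000561) and by 1.26 after clean injury (limma adjusted p = 9.62e-05), and *Idgf3* by 0.73 and 0.94.

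Of 6 genes for chitin synthesis, 2 were lower after pinching and 1 after clean injury, with medians of -0.15 and -0.14. The chitin synthase genes *kkv* and *Chs2* gave log2 changes of 0.24 and 0.26 after pinching and were not called. *Gfat1*, the first enzyme of the hexosamine pathway, was lower by a log2 change of -0.43 after pinching (limma adjusted p = 0.0364) and gave -0.36 after clean injury (0.0678, called with the replicate block). *Gnpnat*, which acetylates glucosamine phosphate in the same pathway, changed by -0.36 after pinching and -0.39 after clean injury and was called in both.

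Chitin deacetylases convert chitin to chitosan, and 2 of 6 were lower in both comparisons, with a median log2 change of -0.46 after pinching and -0.33 after clean injury. *Cda4* was lower by a log2 change of -1.30 after pinching and -1.42 after clean injury, and *serp*, which acts with *verm* in tracheal chitin, by -0.76 and -0.61. *verm* gave -0.80 and -0.82 and was called lower with the replicate block alone.

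Of 13 genes for chitin organisation and chitin-binding proteins, 1 was higher and 3 were lower after pinching, and 1 was higher and 4 were lower after clean injury. With the replicate block 4 were lower after pinching, and 3 were higher after clean injury. Their medians were 0.07 and 0.11. *obst-A*, which protects and orders newly made cuticular chitin, was lower by a log2 change of -1.62 after pinching (limma adjusted p = 0.00382) and -1.05 after clean injury (limma adjusted p = 0.0287). *obst-E* gave -1.33 after pinching and -1.06 after clean injury and was called in both, as was *Peritrophin-A*, with -0.90 after pinching. *Gasp*, a chitin-binding protein of the tracheae, was higher by 0.56 and 0.47.

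Moulting chitinases are known to follow the steroid hormone ecdysone, and 16 genes of the ecdysone receptor and early response were measured. After pinching 1 was higher and 2 were lower, and after clean injury 1 was higher and 1 was lower. With the replicate block 2 were higher after pinching and 3 after clean injury. The median log2 change was 0.14 and 0.11 in these comparisons. *MsrA*, also known as *Eip71CD*, was higher by 0.82 after pinching and 1.16 after clean injury, while *Hr38*, a nuclear receptor, gave -1.72 and -1.35. *Hr38* was dim, with means of 3.45 after pinching, 3.81 after clean injury and 5.17 in untreated larvae. The 2 treated means were below all array medians, and without detection calls such signals cannot be told apart from background. *ImpL2*, a secreted binder of insulin-like peptides, was lower by a log2 change of -0.53 after pinching and gave -0.21 after clean injury. The receptor subunits *EcR* (0.64 and 0.80) and *usp* (0.29 and 0.27) were not called in the fit without the block, which added *EcR* in both comparisons.

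**Figure D4:**
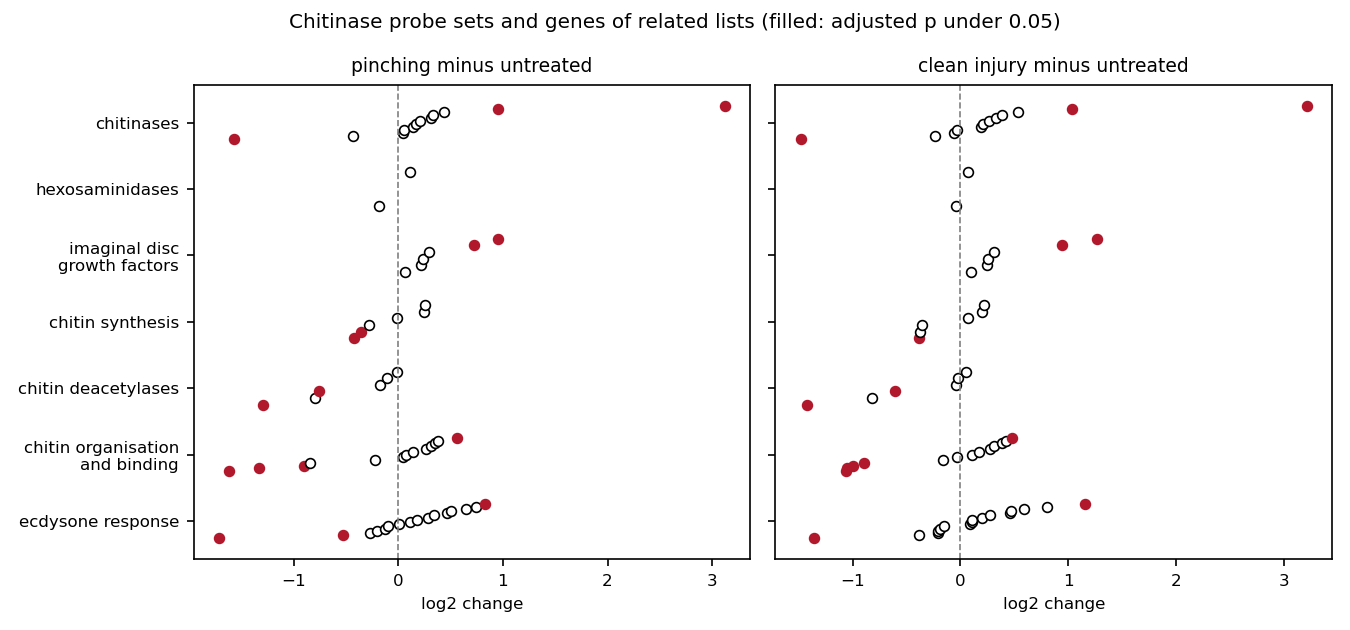
Log2 change (x axis) of the 12 chitinase probe sets and of the genes of 6 related lists (rows), after pinching and after clean injury, each against untreated larvae. Each point is a probe set, filled where the limma adjusted p was under 0.05, and points within a row are spread by rank. Both directions were called among the chitinases, the chitin organisation genes and the ecdysone genes, and called changes ran one way in the imaginal disc growth factors (higher), the synthesis genes and the deacetylases (lower).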

How the data were processed

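Total RNA of whole larvae had been labelled and hybridized to 9 arrays, and the deposited value of a probe set on an array is a log2 signal computed by the authors. The study's methods name R for the array analysis. How background and scale were corrected is not given in the sources used. These signals were used as deposited, since the array medians were close, and they come without detection calls. From 18952 probe sets 183 controls were removed, and the other 18769 were tested, with no filter. limma 3.58.1 in R 4.3.3 was run with a mean per group on all 9 arrays, with two-sided tests and Benjamini-Hochberg adjustment (prior degrees of freedom 4.25). Python 3.11.15, pandas 2.3.3 and matplotlib 3.10.9 made tables and plots. Tested on simulated data of the comparison of pinching with untreated larvae (18769 probe sets), the fit recovered 24% of 50 probe sets changed 1.5-fold, 84% at 2-fold, 98% at 4-fold and 100% at 10-fold, with 3 false calls among 156. The simulated noise was independent between arrays, and fewer probe sets were changed than were called in the data (790 higher and 937 lower after pinching). Recovery in the real comparison can therefore differ from these figures. The number of arrays limits the precision.

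Genes were named from the platform's annotation, in which 13646 probe sets have 1 gene, 402 have several and 4721 have none. Symbols were looked up in a RefSeq table, which changed 0 symbols. Named were every chitinase probe set, the 3 probe sets most like each called chitinase by Pearson's r, and up to 4 called genes per list with the smallest p. Other list genes, markers and gene neighbours were named after their values were seen. Members and lists were chosen with earlier results of these data known. No protein sequences were used here.

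Arrays with the same replicate number deviated together in all 9 pairs (r from 0.189 to 0.548), although the labels state no pairing. The main fit has no term for the replicate number. The replicate block, an alternative, takes arrays of the same number as paired. Adjusted p-values given without mention of the block therefore leave this pairing out. Alternatives were quantile normalization, centring on the median, leaving out the dimmest 40% or the probe sets that can cross-hybridize, a fit on only the 6 arrays of a comparison, the replicate block, the t-test of the methods, a robust prior with a trend in intensity, leaving out each array, and a minimum of 2-fold.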

Additional observations from a re-analysis of the deposited data

How the results depend on the processing

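In both comparisons with untreated larvae, *Cht4*, *Cht5* and *Cht6* 1633303_at were called whichever of the 9 arrays was left out, and under quantile normalization, median centring, without the dimmest 40% of probe sets or those that can cross-hybridize, with the 6 arrays compared, with the intensity trend and with the replicate block. The methods' t-test, which estimates the spread from each probe set alone, called 0 higher and 0 lower after Benjamini-Hochberg adjustment in each of these comparisons. At an unadjusted p under 0.05 it gave 2 higher and 1 lower after pinching and 3 higher and 1 lower after clean injury. With a 2-fold minimum 1 probe set was called higher after pinching, *Cht4*. With the paired fit (replicate block) 2 were called lower after pinching and 4 higher after clean injury, and no call between pinching and clean injury changed. The share over all probe sets was computed for the main fit alone, and not for these alternatives. Leaving out an array gave 2 to 3 higher after clean injury. Values that were not called could change sign. Between pinching and clean injury, *Cht11* was 0.018 and *Cht12* 0.012 under quantile normalization, and *Cht12* was 0.0018 after median centring. Leaving out an array in turn gave, for pinching against untreated larvae, log2 changes of -0.025 to 0.12 for *Cht2*, -0.016 to 0.30 for *Cht6* 1635162_at and -0.073 to 0.27 for *Cht6* 1639149_at. For clean injury against untreated larvae it gave -0.13 to 0.00048 for *Cht2*, -0.15 to 0.19 for *Cht6* 1639149_at and -0.029 to 0.41 for *Cht12*. For pinching against clean injury it gave -0.18 to 0.033 for *Cht4*, -0.26 to 0.026 for *Cht5*, -0.25 to 0.053 for *Cht6* 1633303_at, -0.058 to 0.29 for *Cht6* 1639149_at, -0.35 to 0.022 for *Cht7*, -0.054 to 0.17 for *Cht9*, -0.13 to 0.17 for *Cht10*, -0.14 to 0.058 for *Cht11* and -0.20 to 0.23 for *Cht12*. The cause of these sign changes was not tested. Of all values and alternatives, 600 kept direction and side of the threshold, 7 lost a call, 7 gained one and 31 changed sign. The t-test, the fit on 6 arrays, the intensity trend, the replicate block, the filters and the 2-fold minimum leave each log2 change as it was. So does leaving out an array of the group not compared. Direction could not change in these settings, and the count of 600 includes them. The 3 arrays per group and the lack of detection calls limit what can be said of *Cht8* and of the *Cht6* probe sets 1635162_at and 1639149_at.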

Other observations

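Marker lists of other tissues give the setting of the chitinase values. Of 10 hemocyte genes, 0 were called after pinching in limma without the block (2 at an unadjusted p under 0.05) and 2 were higher with it, while after clean injury 1 was higher and 2 were lower (3 and 4 with the block). The hemocyte gene *He* had a log2 change of 0.54 after pinching (limma adjusted p = 0.0689) and 0.99 after clean injury (limma adjusted p = 0.00462). *PPO1*, a prophenoloxidase of crystal cells, gave -0.39 (limma adjusted p = 0.241) and -0.68 (limma adjusted p = 0.0420). Of 5 muscle genes, the actin gene *Act87E* was lower after pinching (-0.45) and after clean injury (-0.62), and with the block 2 were lower after clean injury. Of 5 genes of adult eye, male accessory gland and yolk, 0 were called in limma in either comparison, and with the block 1, *Yp1*, was called higher after clean injury. The share over all probe sets was not computed with the block, and the part of these genes in the chitinase changes was not tested.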
